A study of Mus musculus with 6 samples.

Results

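Aminoacyl-tRNA synthetases are the enzymes that attach each amino acid to its transfer RNA, the step that sets the genetic code before the ribosome reads it. Cells keep separate enzymes for translation in the cytosol and for the translation of the few respiratory chain subunits encoded by mitochondrial DNA, and both kinds are encoded in the nucleus. The heart, whose cardiomyocytes are packed with mitochondria, depends on both, and human mutations in several of the mitochondrial enzymes cause cardiomyopathy or muscle disease. The 36 synthetase genes described here were found by their symbols among the 14133 genes of the deposited table, and all 36 had a row. The 16 symbols ending in 2 are the mitochondrial enzymes and the other 20 are cytosolic, of which Gars and Kars, the glycyl- and lysyl-tRNA synthetases, serve both compartments.

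Heart RNA was sequenced from C57BL/6 mice that were 1 month old. The hearts labelled knockout were Trx1 flox/flox with a Cre transgene driven by Myh6 (MHC-Cre), a promoter active in cardiomyocytes (replicates 6, 7 and 8), and the control hearts were Trx1 flox/flox without Cre (replicates 3, 4 and 5). Trx1 is thioredoxin-1, the product of Txn1, which keeps cysteines of other proteins in their reduced form. All 6 libraries came from mice with the floxed alleles, and the controls carried no Cre, so an effect of Cre itself and an effect of the deletion cannot be told apart. Whether each replicate was a heart of its own is not stated, and the p-values then cover only library-to-library spread, which may be technical.

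Values are log2 CPM as deposited. They summed to between 921199 CPM (replicate 6) and 1044060 CPM (control replicate 5) per library, so the scaling was not by library size alone. The reads recovered from them came to 8347636 to 10236783 in the libraries labelled knockout and 9257984 to 13705281 in the control libraries. Txn1 itself was at 6.95, 6.90 and 7.13 log2 CPM in the libraries labelled knockout (replicates 6, 7 and 8) and at 6.64 to 7.04 log2 CPM in the controls, a log2 difference of 0.10 (95% confidence interval -0.22 to 0.42, limma adjusted p = 0.72). RNA of the targeted gene was not lower in that group, which exons the flox sites enclose is not stated in the labels, and the group is called labelled knockout throughout. Of 8 cardiomyocyte markers, all were detected in every library, and their summed level was 81351 to 115550 CPM in the libraries labelled knockout and 134522 to 150212 CPM in the controls. Tests covered the 12516 genes whose 6-library average reached 0 log2 CPM, using limma with an intensity trend and Benjamini-Hochberg adjustment over all of them at a threshold of 0.05. By that test 1209 genes differed (9.66%), 600 higher (4.79%) and 609 lower (4.87%) in the libraries labelled knockout.

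All 36 synthetases were tested, and 1 of them passed the test. It was Vars2, the mitochondrial valyl-tRNA synthetase, which fell 1.63-fold in the hearts labelled knockout. The remaining 35, among them all 20 cytosolic enzymes, were not past the test, and the share that passed was below the 9.66% of all tested genes. The direction of the differences nevertheless split by compartment. Of the 16 mitochondrial enzymes, 15 had a log2 fold change below 0, with a median of -0.37, while 7 of the 20 cytosolic enzymes did, with a median of 0.07. Over all tested genes 51.2% lay below 0, with a median of -0.01.

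**Figure D1:**
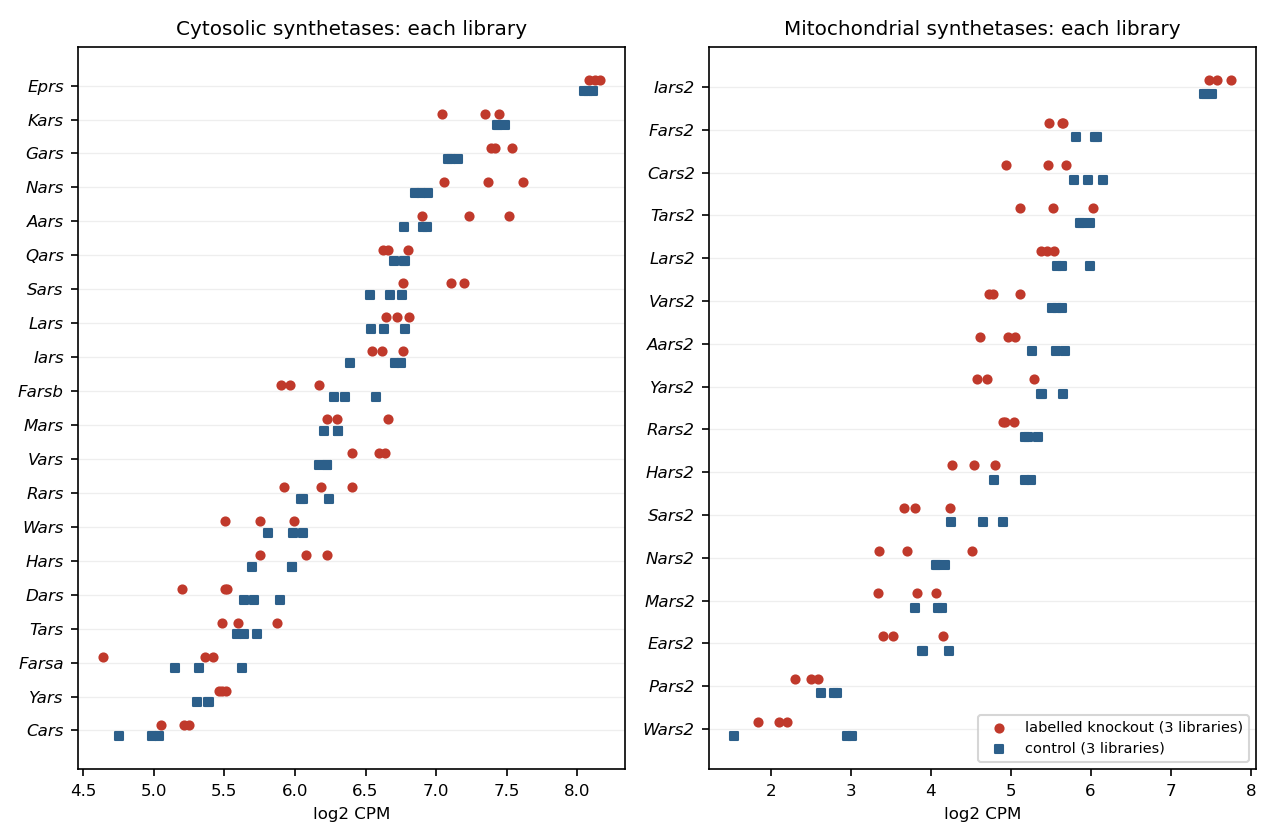
Level of each synthetase gene in log2 CPM on the horizontal axis, with 1 circle per library labelled knockout and 1 square per control library. The 3 circles of Vars2 lie at 4.73 to 5.12, below its squares at 5.52 to 5.64, and most mitochondrial genes have their circles to the left of their squares, whereas the cytosolic genes lie on both sides.

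Vars2 charges mitochondrial tRNA with valine, and human variants of this gene cause a mitochondrial encephalocardiomyopathy. It was at 4.73, 4.77 and 5.12 log2 CPM in the libraries labelled knockout (replicates 6, 7 and 8), against 5.58, 5.52 and 5.64 log2 CPM in the controls (replicates 3, 4 and 5). The groups did not overlap, and replicate 8 lay nearest to the controls. The means were 4.88 ± 0.21 and 5.58 ± 0.06 log2 CPM (SD, n = 3 each), a log2 fold change of -0.70 ± 0.17 (SE, limma adjusted p = 0.022). The reads behind these values were 258, 279 and 298 in the libraries labelled knockout and 643, 412 and 493 in the controls. The call was lost without any 1 of the controls or without replicate 7 (adjusted p = 0.056 to 0.11), and without the intensity trend (adjusted p = 0.085), while the log2 fold change stayed below 0 in every alternative run.

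Vars2 lies on chromosome 17, 35655634 to 35667592 on the minus strand (mm10, annotated as GRCm38 in GENCODE release M21), and 465 bases of its exons overlap the antisense gene Gm20483. Strand use in the counting is not stated, so reads of the 2 genes cannot be told apart there. The promoter of Vars2, the gene on which the test result rests, is shown from RefSeq (GRCm38.p6, chr17:35667543-35667842, minus strand), with the 250 bases before the transcript start in lower case and the first 50 transcribed bases in capitals.
Vars2: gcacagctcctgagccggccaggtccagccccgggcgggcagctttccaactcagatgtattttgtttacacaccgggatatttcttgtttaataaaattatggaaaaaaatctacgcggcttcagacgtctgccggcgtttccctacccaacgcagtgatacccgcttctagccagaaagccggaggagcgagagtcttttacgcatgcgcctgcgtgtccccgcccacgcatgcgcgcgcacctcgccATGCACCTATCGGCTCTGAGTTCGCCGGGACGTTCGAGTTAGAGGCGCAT
This window is 57% G and C and holds 28 CG dinucleotides.

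Among the other mitochondrial enzymes, 4 had differences nearly as large. Aars2, the alanyl enzyme, mutated in an infantile cardiomyopathy in humans, was at 5.05, 4.62 and 4.97 log2 CPM in the libraries labelled knockout and at 5.57, 5.68 and 5.27 log2 CPM in the controls. Its groups did not overlap, yet its log2 fold change of -0.63 ± 0.19 (SE) missed the threshold (limma adjusted p = 0.052). It was past the test in 5 of the 9 alternatives that kept all libraries (adjusted p = 0.039 to 0.14 over the 9), and without replicate 6 or 8. Sars2, the seryl enzyme, had the largest difference together with Vars2, a log2 fold change of -0.70 ± 0.24 (SE, adjusted p = 0.086), and stood at 3.80, 3.67 and 4.24 log2 CPM in the libraries labelled knockout and at 4.91, 4.26 and 4.66 log2 CPM in the controls. The groups did not overlap, but the highest library labelled knockout, replicate 8, all but reached the lowest control.

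Yars2, the tyrosyl enzyme, mutated in a human myopathy with sideroblastic anaemia, averaged 4.86 ± 0.38 log2 CPM in the libraries labelled knockout and 5.47 ± 0.15 log2 CPM in the controls (SD, n = 3 each), with adjusted p = 0.082 in limma. Cars2, the cysteinyl enzyme, averaged 5.37 ± 0.39 log2 CPM in the libraries labelled knockout and 5.97 ± 0.18 log2 CPM in the controls (SD, n = 3 each, limma adjusted p = 0.080). The spread among the libraries labelled knockout was wider than among the controls for both genes. Hars2 and Fars2, the histidyl and phenylalanyl enzymes, had log2 fold changes of -0.53 and -0.39 (limma adjusted p = 0.12 and 0.13). Exons of Cars2, Hars2 and Fars2 overlap genes on the opposite strand by 422, 195 and 616 bases.

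The libraries labelled knockout lay wholly below the controls for 9 of the 16 mitochondrial enzymes (Aars2, Cars2, Fars2, Lars2, Pars2, Rars2, Sars2, Vars2 and Yars2) and wholly above them for 0. Over all tested genes the shares were 16.2% below and 14.4% above. Before adjustment, 7 of the 16 had a p under 0.05, all of them lower, against 1619 lower and 1479 higher among the 12516 tested genes. Lars2, Rars2 and Pars2, the leucyl, arginyl and prolyl enzymes, had differences of -0.27, -0.29 and -0.28 log2, of which the 95% confidence intervals reached above 0. Tars2, Ears2, Mars2 and Nars2 had log2 fold changes of -0.36 to -0.25 and overlapping groups. In Nars2, the asparaginyl enzyme, replicate 8 had 4.52 log2 CPM, above all 3 controls, while replicates 6 and 7 had 3.36 and 3.70 log2 CPM, below them.

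The exception was Iars2, the isoleucyl enzyme. It was at 7.48, 7.58 and 7.76 log2 CPM in the libraries labelled knockout and at 7.44, 7.42 and 7.52 log2 CPM in the controls, a log2 fold change of 0.15 ± 0.13 (SE, limma adjusted p = 0.53), with 2148 exon bases that it shares with genes on the opposite strand. Wars2, the tryptophanyl enzyme, was the member with the fewest reads, 30 to 46 in the libraries labelled knockout and 38 to 76 in the controls. Its control replicate 3 had 1.55 log2 CPM against 3.02 and 2.96 log2 CPM in the other two controls, and its log2 fold change of -0.46 had a 95% confidence interval of -1.40 to 0.49.

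**Figure D2:**
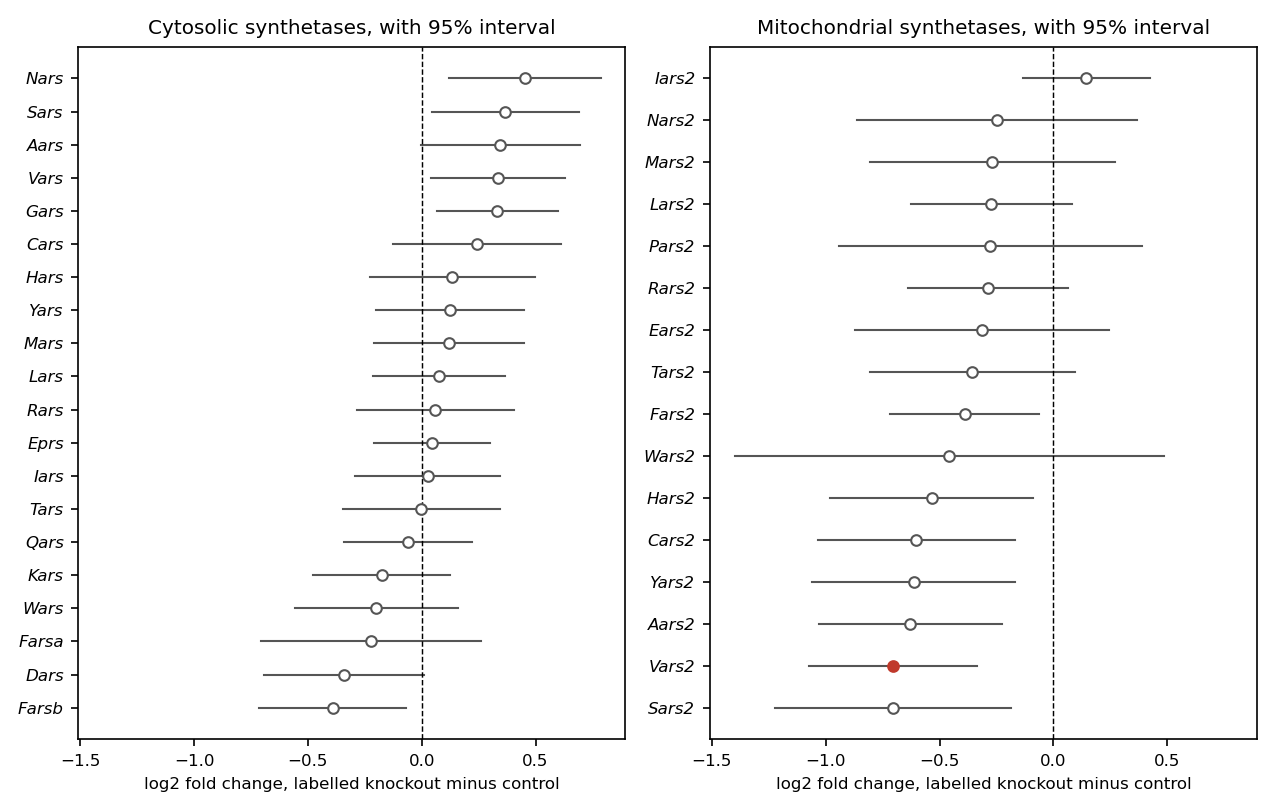
Log2 fold change of each synthetase, labelled knockout minus control, on the horizontal axis, with its 95% confidence interval from limma, and genes in order of the change. The filled point is Vars2, the gene past the test at -0.70, open points are genes not past it, and 15 of the 16 mitochondrial points lie left of 0 with Iars2 at 0.15 as the exception.

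The pattern was seen in each library labelled knockout. Relative to control means, the median mitochondrial enzyme stood at -0.39 log2 in replicate 6, -0.56 in replicate 7 and -0.29 in replicate 8, and 14, 14 and 13 of the 16 enzymes lay below that mean. The median cytosolic enzyme stood at 0.07, 0.16 and 0.01 log2 in the same libraries, and the median of all tested genes at -0.01 to 0.01 log2. Beside this, 4 of the 8 cardiomyocyte markers (Tnni3, Pln, Ryr2 and Atp2a2) fell and 0 rose, with a median log2 fold change of -0.67, and 3 of 7 fibroblast markers (Col1a1, Col1a2 and Dcn) rose. The summed level of the fibroblast markers was 4379 to 6623 CPM in the libraries labelled knockout and 2841 to 3486 CPM in the controls, and none of these markers was at 0. In both the cardiomyocyte and the fibroblast markers replicate 8 was the library labelled knockout nearest to the controls, as it was for the mitochondrial median. Of the other marker lists, Kdr fell among 6 endothelial markers and Abcc9 among 6 smooth muscle and pericyte markers, and 0 of 7 macrophage, 4 lymphocyte, 3 neutrophil and 2 erythroid markers tested passed. The summed macrophage markers were 1078 to 1256 CPM in the libraries labelled knockout and 874 to 958 CPM in the controls. Of 2 tested skeletal muscle markers, Tnnt3 rose and Ckm fell. The part of these markers in the synthetase values was not tested, and in heart tissue fewer cells of a type and less RNA per cell cannot be told apart.

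Of the 20 cytosolic enzymes, 0 passed the test, and their log2 fold changes ran from -0.39 to 0.45. Nars, the asparaginyl-tRNA synthetase, had the largest positive difference, at 7.37, 7.62 and 7.05 log2 CPM in the libraries labelled knockout and at 6.94, 6.89 and 6.85 log2 CPM in the controls. Its groups did not overlap, and its log2 fold change was 0.45 ± 0.15 (SE), not past the test (limma adjusted p = 0.084). Sars, Aars, Vars and Gars, the seryl, alanyl, valyl and glycyl enzymes, followed with log2 fold changes of 0.37, 0.35, 0.33 and 0.33 (limma adjusted p = 0.15, 0.21, 0.15 and 0.11). Gars was the tightest of these, at 7.42, 7.54 and 7.39 log2 CPM in the libraries labelled knockout and at 7.15, 7.11 and 7.08 log2 CPM in the controls. Exons of Aars overlap those of Exosc6 and of a miRNA gene by 1403 bases.

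Wholly above the controls were 6 of the 20 cytosolic enzymes (Cars, Gars, Nars, Sars, Vars and Yars), and wholly below them 2 (Dars and Farsb), against 14.4% and 16.2% of all tested genes. Before adjustment, 5 of the 20 (25.0%) had a p under 0.05, 4 of them higher, and this share is that of all tested genes (24.8%). Farsb, the beta subunit of the phenylalanyl enzyme, had the most negative cytosolic difference, at 6.17, 5.90 and 5.96 log2 CPM in the libraries labelled knockout and at 6.57, 6.36 and 6.27 log2 CPM in the controls (log2 fold change -0.39 ± 0.15, SE, limma adjusted p = 0.12). Farsa, its alpha subunit, had -0.22 ± 0.22 (SE) with overlapping groups. Tars, the threonyl enzyme, averaged 5.65 log2 CPM in both groups (SD 0.20 in the libraries labelled knockout and 0.07 in the controls). Wars, the tryptophanyl enzyme, a gene induced by interferon gamma, had a log2 fold change of -0.20 ± 0.16 (SE, limma adjusted p = 0.50).

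In mammals 8 of the cytosolic enzymes (Dars, Eprs, Iars, Kars, Lars, Mars, Qars and Rars) sit together in a multisynthetase complex. Grouped in this way after the values were seen, the 8 had log2 fold changes of -0.34 to 0.12, with a median of 0.04, and 0 had an unadjusted p under 0.05. The 12 enzymes outside the complex spanned -0.39 to 0.45, with a median of 0.19, and held all 6 genes whose libraries labelled knockout lay wholly above the controls. Eprs, the bifunctional glutamyl-prolyl enzyme of the complex, was among the most even members, at 8.08, 8.16 and 8.13 log2 CPM in the libraries labelled knockout and 8.07, 8.05 and 8.11 log2 CPM in the controls. The 95% confidence interval of its difference was -0.21 to 0.30 log2. The scaffold genes of the complex, Aimp1, Aimp2 and Eef1e1, had log2 fold changes of -0.14, -0.01 and 0.25, and 0 of the 3 passed the test.

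Many cytosolic synthetase genes are known targets of ATF4, the transcription factor of the amino acid response, which binds with a C/EBP partner to a composite element. Its core, searched as TGATGNAA and in reverse as TTNCATCA, was found in the promoters of 5 of the 12 cytosolic enzymes with a RefSeq promoter (250 bases before to 50 after the start) and of 0 of the 14 mitochondrial ones. Of all 32851 promoters, 3.97% hold it. In all 26 of the 36 members matched to a promoter by symbol, and no match says only that these letters are not in the window. Matched sites, 1 for each of the 5 genes, are shown with the element in capitals and 11 bases on either side, read along the strand of the gene. They were picked for display after the matches were seen. Aars has a further match, 112 bases before the start, that is not shown. A match is a description and not evidence of binding.
Aars, from base 10 of the transcript (chr8:111033840-111033869, plus strand): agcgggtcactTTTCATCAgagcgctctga
Gars, 30 bases before the start (chr6:55037960-55037989, plus strand): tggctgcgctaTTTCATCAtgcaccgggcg
Iars, from base 8 of the transcript (chr13:49682126-49682155, plus strand): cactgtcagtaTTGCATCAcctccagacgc
Tars, 15 bases before the start (chr15:11399655-11399684, minus strand): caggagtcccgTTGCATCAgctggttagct
Yars, from base 4 of the transcript (chr4:129189895-129189924, plus strand): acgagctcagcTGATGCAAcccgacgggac
The genes with the element did not move as one, with log2 fold changes of 0.35 for Aars, 0.33 for Gars, 0.12 for Yars, 0.03 for Iars and 0.00 for Tars. The E-box of Myc, CACGTG, which reads the same on both strands, was found in 4 of the 12 cytosolic promoters (Aars, Farsb, Iars and Tars) and in 1 of the 14 mitochondrial genes (Ears2), against 7.15% of all promoters.

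Setting the 2 enzymes of one amino acid against each other within a library gave a measure that does not depend on how libraries are scaled. For 15 of 16 pairs the log2 level of the cytosolic minus the mitochondrial enzyme was higher on average in the libraries labelled knockout. The median shift was 0.37 log2 (Eprs enters both the glutamate and the proline pair). Each mean shift is the difference between the log2 fold changes of the 2 enzymes, so it restates them and is not separate evidence. The groups did not overlap for 7 pairs, all higher in the libraries labelled knockout, namely those of serine, valine, alanine, cysteine, tyrosine, histidine and leucine. The share without overlap among other pairs of genes was not computed. The difference between Vars and Vars2 was 1.87, 1.86 and 1.28 log2 in the libraries labelled knockout and 0.65, 0.71 and 0.53 log2 in the controls. That between Sars and Sars2 was 3.30, 3.53 and 2.53 log2 in the libraries labelled knockout and 1.85, 2.28 and 2.01 log2 in the controls. In both pairs replicate 8 had the smallest shift of its group. These shifts are given as a description, since 3 against 3 libraries cannot go below an exact two-sided permutation p of 0.1, and differences between genes of unequal length carry meaning here only as changes between groups.

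**Figure D3:**
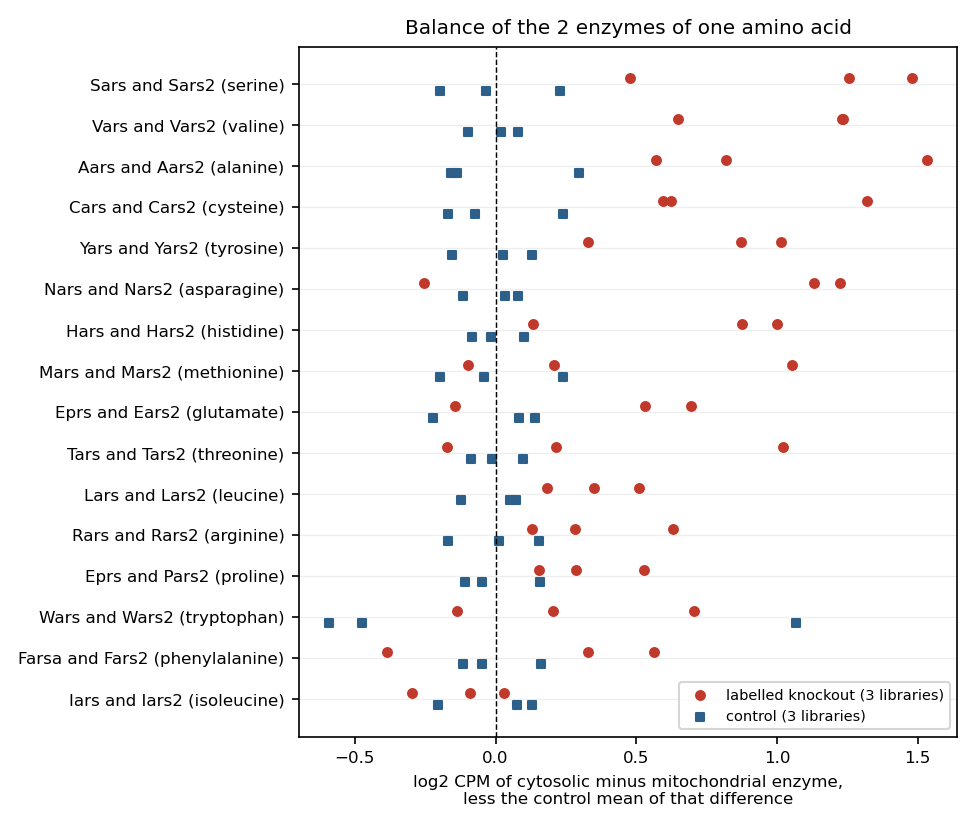
Log2 CPM of the cytosolic minus the mitochondrial enzyme of each amino acid in every library, less the control mean of that difference, with circles for libraries labelled knockout and squares for controls. The circles of the serine, valine, alanine, cysteine and tyrosine pairs all lie right of their squares, and the isoleucine pair, at the bottom, is the one with a negative mean shift (-0.12 log2).

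Isoleucine was the pair with the opposite shift, of -0.12 log2, with overlapping groups. For phenylalanine, where the alpha subunit Farsa stood for the cytosolic enzyme, the shift was 0.17 log2, and Farsb had the same log2 fold change of -0.39 as Fars2. For asparagine the shift was 0.70 log2 on average but rested on replicates 6 and 7, at 4.01 and 3.92 log2, while replicate 8, at 2.53 log2, lay below the controls, which were at 2.67 to 2.87 log2.

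Per kilobase of transcript, levels spanned a wide range. The median over the 20 cytosolic enzymes was 29.5 CPM per kilobase in the hearts labelled knockout and 28.0 CPM per kilobase in control hearts, and the median over the 16 mitochondrial enzymes was 8.83 in hearts labelled knockout and 13.5 in control hearts. Kars was the highest, at 74.0 ± 10.5 CPM per kilobase in hearts labelled knockout and 83.0 ± 1.9 in controls (SD, n = 3 each). Gars came next in the controls (73.4 ± 4.0 in hearts labelled knockout, 58.3 ± 1.4 in controls). Eprs (56.9 ± 1.6 labelled knockout, 55.1 ± 1.2 control) and Nars (60.7 ± 11.7 labelled knockout, 43.8 ± 1.4 control) followed. Gars and Kars, the enzymes that serve both compartments, were thus the highest of the 36 in control hearts, and the control libraries of Kars, Gars, Eprs and Nars did not overlap in this order. Further down the order some neighbours overlapped in the controls, as Farsb (42.6 ± 4.6 in controls) did with Fars2, and others did not, as Rars2 (20.3 ± 1.3 in controls) and Vars (17.9 ± 0.4 in controls). Among the mitochondrial enzymes Fars2 (31.3 ± 2.1 labelled knockout, 41.1 ± 4.0 control), Cars2 (22.2 ± 5.6 labelled knockout, 33.1 ± 4.2 control) and Iars2 (35.7 ± 3.5 labelled knockout, 32.2 ± 1.2 control) stood highest in the controls. Wars2 was lowest, at 0.95 ± 0.12 in hearts labelled knockout and 1.4 ± 0.7 in controls. Lengths are means over GENCODE transcripts tied to RefSeq NM entries, that of Aars includes the overlap with Exosc6, and that of Mars2, 11294 bases, exceeds its whole RefSeq gene of 2882 bases, so its level per kilobase is not ranked here.

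Of 17 further genes of tRNA charging, 2 fell and 0 rose, with a median log2 fold change of -0.09. Of all tested genes 9.66% passed, 4.87% lower and 4.79% higher. As a count of calls in either direction 2 of 17 is near that 9.66%, with both calls lower. Both fell further than any synthetase. Qrsl1, the catalytic subunit of the amidotransferase that makes mitochondrial glutaminyl-tRNA in place of a synthetase, was at 4.77, 4.30 and 5.20 log2 CPM in the libraries labelled knockout and at 5.77, 5.90 and 5.97 log2 CPM in the controls, a log2 fold change of -1.12 ± 0.21 (SE, limma adjusted p = 0.0069). Its partners Gatb and Gatc were not past the test, with log2 fold changes of -0.04 and 0.18, nor was Mtfmt, which formylates mitochondrial initiator tRNA (-0.21). The call of Qrsl1 was lost without control replicate 5 (adjusted p = 0.054).

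Aarsd1, which clears alanine tRNA that carries a wrong amino acid, was at 5.12, 4.91 and 5.41 log2 CPM in the libraries labelled knockout and at 6.14, 6.20 and 6.26 log2 CPM in the controls, a log2 fold change of -1.05 ± 0.17 (SE, limma adjusted p = 0.0026). It kept its call with any 1 library left out, but 1250 bases of its exons are shared with Gm27029 on the same strand, so its value is uncertain. Tarsl2, a further cytosolic threonyl-tRNA synthetase, had -0.67 ± 0.22 (SE, adjusted p = 0.076, limma). The genes of selenocysteine charging, Pstk and Sepsecs, had log2 fold changes of -0.35 and 0.64 and did not pass the test.

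Of 24 tested genes of the amino acid response, the programme that raises synthetases and amino acid supply when charging fails, 2 rose and 1 fell. Their median log2 fold change was 0.34, and the count of calls was near the 9.66% of all tested genes that passed. Before adjustment, 11 of the 24 (45.8%) had a limma p under 0.05, 9 higher and 2 lower, against 24.8% of all tested genes. Libraries labelled knockout lay wholly above the controls for 5 of the 24 and wholly below for 2, against 14.4% and 16.2% of all tested genes. Slc7a5, the light chain of a leucine transporter, rose 3.22-fold (3.77 ± 0.67 log2 CPM in the libraries labelled knockout and 2.08 ± 0.26 in the controls, SD, n = 3 each, limma adjusted p = 0.012), and its call was lost without control replicate 3 or replicate 7 (adjusted p = 0.055 and 0.059). Nupr1, a stress-induced nuclear protein gene, rose 3.93-fold (adjusted p = 0.0080, limma). Cth, which makes cysteine from cystathionine, fell by 2.02 on the log2 scale (limma adjusted p = 0.020), with 9 to 18 reads in the libraries labelled knockout and 56 to 70 in the controls, and was not past the test without control replicate 4 or 5 or replicate 7 (adjusted p = 0.056 to 0.12). Atf4 itself was at 7.58, 7.58 and 7.57 log2 CPM in the libraries labelled knockout and 7.22, 7.17 and 7.44 log2 CPM in the controls, wholly above but not past the test (log2 fold change 0.30 ± 0.13, SE, limma adjusted p = 0.16). Atf5, a relative of Atf4, and Eif4ebp1, a brake on cap-dependent translation, were not past it either, with log2 fold changes of 0.67 and 0.68 (limma adjusted p = 0.083 and 0.078). Asns, Ddit3, Trib3 and Chac1, common readouts of this programme, had log2 fold changes of 0.34 to 0.57 with overlapping groups. Psat1, Pycr1 and Mthfd2 had larger log2 fold changes of 1.52, 1.53 and 0.94, also with overlapping groups (limma adjusted p = 0.13 each). All 5 calls among these partner genes were lost without the intensity trend (adjusted p = 0.055 to 0.076).

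**Figure D4:**
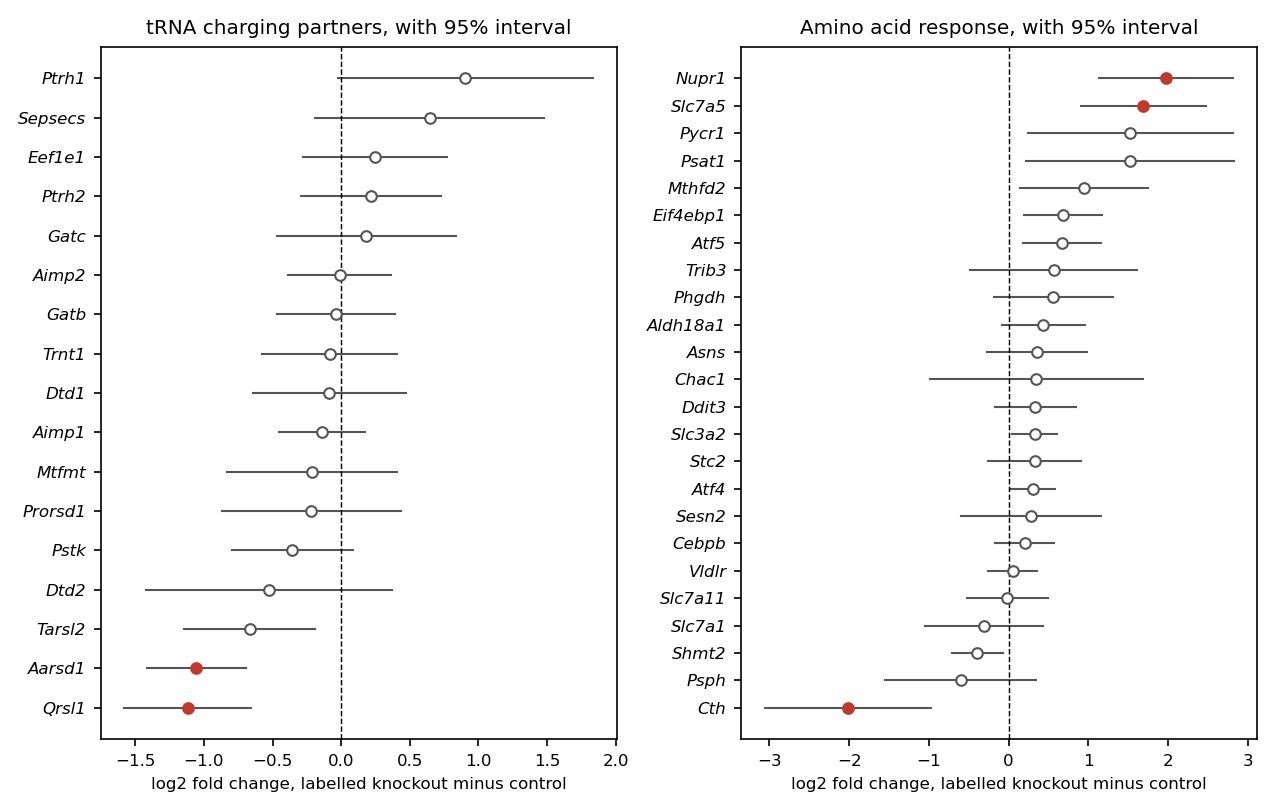
Log2 fold change of the other genes of tRNA charging (left) and of the amino acid response (right), labelled knockout minus control, on the horizontal axis, with 95% confidence intervals from limma. Filled points passed the test, which are Qrsl1 (-1.12) and Aarsd1 (-1.05) on the left and Nupr1 (1.97), Slc7a5 (1.69) and Cth (-2.02) on the right.

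How many synthetases passed the test changed with the libraries in the fit. Without replicate 8, the library labelled knockout whose median mitochondrial enzyme lay nearest to the controls, 9 of the 36 passed, against 17.5% of all tested genes in that fit (2185 of 12516). They were 6 mitochondrial enzymes, all lower (Aars2, Hars2, Sars2, Tars2, Vars2 and Yars2), and 3 cytosolic ones, all higher (Aars, Nars and Sars). Nars had a log2 fold change of 0.60 in that fit (adjusted p = 0.0070, limma), Yars2 -0.83 (0.0069) and Vars2 -0.83 (0.0045). Leaving out any 1 control or replicate 7 left 0 synthetases past the test, and leaving out replicate 6 left 3 (Aars2, Cars2 and Vars2).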

How the data were processed

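Mouse heart RNA was sequenced in 6 libraries. The authors deposited log2 CPM per gene, 1 column per library, per the file headers, which name RefSeq NM transcripts and mm10. The submitters' processing notes list CASAVA, HISAT2 and edgeR, with no version or role. The lowest value, -3.29 log2 CPM, is the same in every library, as a prior count leaves it. Reads per gene were recovered from the steps above it (whole within 0.002 reads for 83.6% to 84.9% of genes per library). Pairs of libraries of a group differed by 8.15 to 50.4 times counting error (chi-square per gene), so none was the same library sequenced again. Counting error does not cover library preparation, so separate libraries of the same heart cannot be told apart this way.

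Genes averaging 0 log2 CPM or more were fitted with limma 3.58.1 in R 4.3.3 (4 residual degrees of freedom, group means, intensity trend, two-sided, Benjamini-Hochberg over 12516 genes), checked on simulated data. Fold changes set labelled knockout over control. The filter, a pseudocount of 1 CPM, scaling, trend, library weights, limma-voom on recovered reads and each library left out were varied. Members named in full are the gene past the test and those with the most extreme changes per compartment, and others were chosen after their values were seen. Members and lists were chosen with earlier results of these data known. Gene positions come from GENCODE release M21 (GRCm38), promoters from RefSeq (GRCm38.p6). Exons of 13 of the 36 members overlap another gene and 1 (Kars) has an annotated pseudogene, so their reads may be shared. A few items are not reported here.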

Additional observations from a re-analysis of the deposited data

How the results depend on the processing

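Across 15 alternatives, the 36 log2 fold changes kept their direction and their side of the threshold in 505 of 538 values, and 17 gained a call, 5 lost one (all Vars2) and 11 changed sign. The sign changes were in 6 genes, none past the test. Tars had 0.0041 with library weights and 0.0015 with limma-voom. With 1 library left out, Tars ranged from -0.11 to 0.083, Farsa from -0.36 to 0.028, Iars from -0.088 to 0.095, Mars from -0.013 to 0.20, Rars from -0.057 to 0.18 and Nars2 from -0.58 to 0.0034.

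The median of the mitochondrial enzymes stayed at -0.50 to -0.33 and that of the cytosolic enzymes at 0.030 to 0.11 in all 15. Mitochondrial enzymes past the test numbered 2 among genes averaging 3 log2 CPM or more, with log2(CPM + 1), with a robust trend and with limma-voom, 3 with library weights and 0 without a trend, and 0 to 6 with 1 library left out. Cytosolic enzymes past it numbered 1 (Nars) with library weights and 0 to 3 with 1 library left out. Of the partner genes, 2 passed among genes averaging 3 log2 CPM or more, 0 without a trend and 3 to 12 with 1 library left out. Over all genes, 121 passed without a trend and 403 to 2185 with 1 library left out. The cause of these shifts was not tested. Some of the alternatives also leave fewer libraries or genes in the fit. Median-centring and quantile normalization changed no call among the 36.

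No paired analysis was possible because the groups share no replicate numbers. Wars2 and Pars2 had under 100 reads in every library.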
